A study of Mus musculus with 9 samples.

Results

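Expression of solute carrier genes, the large group of genes that encode membrane transporters for small molecules, was described in mouse pluripotent stem cells under 3 culture conditions. The genes were chosen from the measured levels. A gene was taken where its probe set carried a single annotated symbol beginning with Slc and a digit, the brightest probe set stood for the gene, and the gene was kept where the mean log2 level of at least 1 culture group was 7 or more. Of 364 solute carrier genes on the array, 128 met this rule, 233 lay under the threshold, and 3 that reached it (Slc7a11, Slc38a4 and Slc2a1) were left out beforehand. The 128 genes, of 41 families, were among 19938 genes measured. Just inside the threshold lay Slc35c2, with a highest group mean of 7.003, Slc19a1 with 7.014 and Slc17a9 with 7.024. Just outside lay Slc35d1 with 6.999, Slc27a1 with 6.996 and Slc29a3 with 6.987.

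Solute carriers move amino acids, sugars, organic acids, ions, metals, nucleosides, lipids and vitamins across the plasma membrane and the membranes of organelles. Most do so as facilitators, exchangers or cotransporters driven by the gradients of sodium or protons, and family SLC25 consists mainly of carriers of the inner mitochondrial membrane. Pluripotent stem cells divide fast and are known for high glycolysis and a large demand for amino acids. The primed state is known for stronger reliance on glycolysis than the naive state.

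The 9 arrays formed 3 groups of 3. Epiblast stem cells (EpiSCs), which stand for the primed epiblast, were of strain CD1 and were kept either in CHIR99021, a GSK3 inhibitor, with XAV939, a tankyrase inhibitor (CHIR/XAV EpiSCs), or in the growth factors FGF2 and activin (FGF2/activin EpiSCs). Embryonic stem cells (ESCs), which stand for the naive epiblast, were of strain 129 and were kept in 2i, which by its common meaning is CHIR99021 with the MEK inhibitor PD0325901. The labels list the doses for all samples together: CHIR99021 at 3 µM, XAV939 at 2 µM, FGF2 and activin at 10 ng/ml each and PD0325901 at 1 µM, in medium with 10% fetal bovine serum. The labels do not say how many cell lines or separate cultures lie behind the 3 arrays of a group, so the spread behind each p-value is that between arrays and may be a technical one. By the group names, CHIR/XAV EpiSCs differ from ESCs in cell type and strain, in the absence of PD0325901 and in the presence of XAV939. FGF2/activin EpiSCs differ from ESCs in cell type and strain, lack CHIR99021 and PD0325901, and have FGF2 and activin. CHIR/XAV EpiSCs differ from FGF2/activin EpiSCs in CHIR99021, XAV939, FGF2 and activin at the same time. Within each comparison these factors change together and cannot be told apart.

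Values are log2 expression, so a difference of 1 is 2-fold. Errors of levels are SDs over the 3 arrays of a group, and errors of log2 differences are standard errors of the fit. Array medians lay between 5.57 and 5.65. Precision is limited by the number of arrays. All 7 primed epiblast markers were higher and all 9 naive markers lower in each EpiSC group than in ESCs by limma's test, with median log2 changes of 2.0 and -3.19 in CHIR/XAV EpiSCs and of 1.99 and -4.12 in FGF2/activin EpiSCs. The label for tissue reads embryonic stem cell for all arrays. The 10 feeder or fibroblast markers summed to log2 values of 53.1 to 53.8 in CHIR/XAV EpiSCs, 55.9 to 56.4 in FGF2/activin EpiSCs and 52.6 to 53.0 in ESCs. Against ESCs, CHIR/XAV EpiSCs had 1 of them called higher and 2 called lower, and FGF2/activin EpiSCs had 5 and 1. Of all genes tested, 24.7% were called higher and 22.1% lower in CHIR/XAV EpiSCs against ESCs. The shares were 27.8% and 33.5% in FGF2/activin EpiSCs against ESCs. Acta2, a smooth muscle actin, averaged 5.96, 9.41 and 6.98 in CHIR/XAV EpiSCs, FGF2/activin EpiSCs and ESCs, and Thy1, a surface protein of fibroblasts and other cells, averaged 7.21, 5.70 and 5.44. No group mean of the other feeder or fibroblast markers was above 6.06, so their values may be background. The 12 extraembryonic endoderm markers summed to 60.5 to 62.1 in CHIR/XAV EpiSCs, 60.9 to 61.9 in FGF2/activin EpiSCs and 61.3 to 62.1 in ESCs. Against ESCs, CHIR/XAV EpiSCs had 0 of these called higher and 1 lower, and FGF2/activin EpiSCs had 2 and 8. The shares of all genes given for the feeder or fibroblast markers stand beside these counts too. Cubn, an endocytic receptor, was at 4.60, 6.12 and 4.49 in CHIR/XAV EpiSCs, FGF2/activin EpiSCs and ESCs. No group mean of the other endoderm markers was above 5.79, so their values may be background. The part of these markers in the results below was not tested. In such bulk samples, fewer cells with a transcript and less of it per cell cannot be told apart.

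Of the 128 genes, 84 averaged 7 or more in all 3 groups, 26 in 2 groups and 18 in 1 group. Entry of the 84 did not depend on a difference between groups. The other 44 entered through their higher groups, although the group means of Slc35c2 and Slc19a1 all lay close to 7. Calls (limma, adjusted p under 0.05 over all 19938 genes) are given for the 84 alone. The other 44 are described by their levels with no test. In CHIR/XAV EpiSCs against ESCs, 34 of the 84 were higher and 22 lower, which is 66.7%, beside 61.7% of the 6269 genes of any kind at 7 or more in all groups (33.7% higher, 28% lower) and 46.7% of all genes tested. In FGF2/activin EpiSCs against ESCs, 38 were higher and 32 lower (83.3%, beside 67.5% of such genes, 41.7% higher and 25.8% lower, and 61.3% of all). In CHIR/XAV against FGF2/activin EpiSCs, 22 were higher and 28 lower (59.5%, beside 52.9%, 19.3% higher and 33.6% lower, and 41.6% of all). The median log2 change of the 84 was 0.11, 0.12 and -0.05 in these comparisons, beside 0.04, 0.10 and -0.06 for all genes at that level. Most changes were small: 9, 8 and 5 of the 84 were called and at least 2-fold, beside 7.13%, 8.79% and 3.43% of all genes at that level.

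The split between higher and lower calls moved with the scaling of the arrays. Of the called genes among the 84, 60.7% were higher in CHIR/XAV EpiSCs than in ESCs as deposited and 47.4% after centring each array on its median. For FGF2/activin EpiSCs against ESCs the share was 54.3% as deposited and 42.9% after quantile normalization, and for CHIR/XAV against FGF2/activin EpiSCs it was 44.0% as deposited and 61.1% after quantile normalization. Median centring placed the median change of all genes against ESCs at -0.13 in CHIR/XAV EpiSCs, beside -0.03 as deposited. Differences called for single genes below kept their sign under both scalings.

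Several transporters of amino acids and their partner protein were lowest in FGF2/activin EpiSCs. Of the 16 such genes at 7 or more in all groups, 8 were higher and 4 lower in CHIR/XAV than in FGF2/activin EpiSCs. Against ESCs, 9 were higher and 2 lower in CHIR/XAV EpiSCs, while 6 were higher and 8 lower in FGF2/activin EpiSCs. After median centring, the split in CHIR/XAV EpiSCs against ESCs was 8 higher and 5 lower. Slc7a6os, which carries the prefix but encodes no transporter, is counted among the 16. Of all genes at that level, 33.7% were higher and 28% lower in CHIR/XAV EpiSCs against ESCs. The shares were 41.7% and 25.8% in FGF2/activin EpiSCs against ESCs, and 19.3% and 33.6% in CHIR/XAV against FGF2/activin EpiSCs. They are the background for the counts of every substrate class. Slc7a5 encodes LAT1, which exchanges large neutral amino acids such as leucine for glutamine. Its level was 11.59, 11.68 and 11.68 in CHIR/XAV EpiSCs, 10.75, 10.73 and 10.70 in FGF2/activin EpiSCs and 11.70, 11.76 and 11.78 in ESCs. The 3 FGF2/activin EpiSC arrays lay below all others, 1.9-fold lower than CHIR/XAV EpiSCs (log2 difference of CHIR/XAV minus FGF2/activin 0.92 ± 0.06 SE, limma adjusted p = 3.66e-08). CHIR/XAV EpiSCs and ESCs differed by -0.09, with an adjusted p of 0.248, and by -0.19 after median centring, with an adjusted p of 0.0181. Slc3a2 encodes the CD98 heavy chain, the partner that carries LAT1 to the cell surface. Its level was 11.29, 11.37 and 11.25 in CHIR/XAV EpiSCs, 10.80, 10.82 and 10.71 in FGF2/activin EpiSCs and 11.38, 11.35 and 11.33 in ESCs. Here too the FGF2/activin EpiSC arrays lay below the other 6, by 0.53 against CHIR/XAV EpiSCs (adjusted p = 1.35e-05).

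Slc1a5, Slc1a4 and Slc38a1, for carriers of glutamine or small neutral amino acids, were lowest in FGF2/activin EpiSCs too. Slc1a5 encodes ASCT2, a sodium-dependent exchanger that takes up glutamine. It read 9.90, 10.10 and 9.94 in CHIR/XAV EpiSCs, 8.82, 8.90 and 8.78 in FGF2/activin EpiSCs and 9.48, 9.39 and 9.28 in ESCs. The 3 groups did not overlap, and CHIR/XAV EpiSCs were 2.21-fold higher than FGF2/activin EpiSCs (adjusted p = 3.39e-08) and 1.51-fold higher than ESCs (adjusted p = 1.59e-05). Its relative Slc1a4, which encodes ASCT1, a carrier of alanine, serine and cysteine, read 8.27, 8.44 and 8.43 in CHIR/XAV EpiSCs, 7.38, 7.41 and 7.45 in FGF2/activin EpiSCs and 8.04, 7.97 and 8.04 in ESCs. These groups did not overlap either, and the difference between the EpiSC groups was 0.97 ± 0.07 (adjusted p = 5.93e-08). Slc38a1 encodes SNAT1, a sodium-coupled glutamine transporter, and read 10.63, 10.82 and 10.62 in CHIR/XAV EpiSCs, 9.52, 9.54 and 9.52 in FGF2/activin EpiSCs and 10.40, 10.39 and 10.36 in ESCs. CHIR/XAV EpiSCs were 2.24-fold higher than FGF2/activin EpiSCs (adjusted p = 9.16e-09), and a second probe set of the gene gave the same log2 difference of 1.16. Against ESCs the 2 probe sets differed in size, at 0.31 and 0.85 in CHIR/XAV EpiSCs and at -0.86 and -0.31 in FGF2/activin EpiSCs.

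Slc38a2, which encodes SNAT2, a sodium-coupled transporter known to rise when amino acids are short, had another order. It read 12.08, 12.09 and 12.06 in CHIR/XAV EpiSCs, 11.41, 11.47 and 11.40 in FGF2/activin EpiSCs and 11.14, 11.16 and 11.15 in ESCs, so that both EpiSC groups lay above ESCs, by 0.93 and 0.28 (adjusted p = 9.92e-09 and 0.00124). Cationic amino acid transporters did not move together. Slc7a1, for CAT1, a carrier of arginine and lysine, read 7.93, 8.06 and 8.18 in CHIR/XAV EpiSCs, 8.06, 7.99 and 7.96 in FGF2/activin EpiSCs and 9.43, 9.42 and 9.47 in ESCs, and was 2.61-fold lower in CHIR/XAV EpiSCs and 2.71-fold lower in FGF2/activin EpiSCs than in ESCs (adjusted p = 1.09e-09 and 5.44e-10). The EpiSC groups overlapped for this gene. Slc7a3, for the related CAT3, averaged 11.10 ± 0.12 in CHIR/XAV EpiSCs, 10.37 ± 0.076 in FGF2/activin EpiSCs and 10.89 ± 0.096 in ESCs (SD, n = 3 each) and was higher in CHIR/XAV than in FGF2/activin EpiSCs by 0.73 (adjusted p = 5.15e-06). Slc7a7, for y+LAT1, which exports arginine in exchange for neutral amino acids, averaged 9.92 ± 0.086 in CHIR/XAV EpiSCs, 9.44 ± 0.028 in FGF2/activin EpiSCs and 8.61 ± 0.029 in ESCs. It was highest in CHIR/XAV EpiSCs, 2.48-fold above ESCs (adjusted p = 6.32e-10).

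The 4 amino acid transporter genes lower in CHIR/XAV than in FGF2/activin EpiSCs were Slc6a15, Slc38a7, Slc38a6 and Slc7a6. Slc6a15, for B0AT2, a sodium-dependent carrier of branched-chain amino acids and proline, read 7.22, 7.25 and 7.06 in CHIR/XAV EpiSCs, 8.11, 8.19 and 8.21 in FGF2/activin EpiSCs and 7.40, 7.32 and 7.27 in ESCs. Its FGF2/activin EpiSC arrays lay above all others, 1.99-fold above CHIR/XAV EpiSCs (adjusted p = 7.68e-08). Slc38a7 encodes SNAT7, which releases glutamine and asparagine from lysosomes. Its level was 6.96, 7.22 and 7.07 in CHIR/XAV EpiSCs, 8.07, 7.99 and 7.97 in FGF2/activin EpiSCs and 8.26, 8.23 and 8.20 in ESCs, lowest in CHIR/XAV EpiSCs, with a log2 difference of -0.92 from FGF2/activin EpiSCs (adjusted p = 1.94e-07). Slc38a6 and Slc7a6, for y+LAT2, differed by -0.49 and -0.42 between CHIR/XAV and FGF2/activin EpiSCs (adjusted p = 0.000641 and 0.00144). Slc38a9, whose product takes part in the sensing of lysosomal arginine by mTORC1, averaged 8.57 ± 0.063 in CHIR/XAV EpiSCs, 8.50 ± 0.061 in FGF2/activin EpiSCs and 7.62 ± 0.058 in ESCs. It was higher than in ESCs by 0.96 in CHIR/XAV EpiSCs and by 0.88 in FGF2/activin EpiSCs (adjusted p = 2.54e-08 and 5.23e-08), and a dimmer probe set of the gene gave 0.34 and 0.14.

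Some amino acid and peptide transporter genes reached 7 only in part of the groups. Slc15a1, for PEPT1, the proton-coupled carrier of dipeptides and tripeptides, read 5.67, 5.85 and 5.68 in CHIR/XAV EpiSCs, 4.65, 4.51 and 4.54 in FGF2/activin EpiSCs and 9.09, 8.89 and 8.98 in ESCs. It reached 7 in ESCs alone, where it was 9.52-fold above CHIR/XAV EpiSCs and 21.4-fold above FGF2/activin EpiSCs. Slc1a3, for GLAST, a glutamate transporter, had the opposite pattern, with 7.80, 7.84 and 7.92 in CHIR/XAV EpiSCs, 7.61, 7.68 and 7.65 in FGF2/activin EpiSCs and 5.66, 5.68 and 5.63 in ESCs. Slc6a9, for the glycine transporter GLYT1, read 8.26, 8.48 and 8.21 in CHIR/XAV EpiSCs, 6.55, 6.30 and 6.35 in FGF2/activin EpiSCs and 7.93, 8.09 and 8.02 in ESCs, so the FGF2/activin EpiSC arrays were the low ones. The same group was lowest for 2 more carriers of large neutral amino acids: Slc7a8 (LAT2) averaged 7.18 ± 0.12 in CHIR/XAV EpiSCs, 5.37 ± 0.16 in FGF2/activin EpiSCs and 6.44 ± 0.11 in ESCs, and Slc43a1 (LAT3) averaged 7.16 ± 0.13 in CHIR/XAV EpiSCs, 6.21 ± 0.042 in FGF2/activin EpiSCs and 7.44 ± 0.11 in ESCs. Slc36a4, for a proline and tryptophan carrier, averaged 6.59 ± 0.086 in CHIR/XAV EpiSCs, 7.33 ± 0.098 in FGF2/activin EpiSCs and 6.29 ± 0.098 in ESCs.

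**Figure D1:**
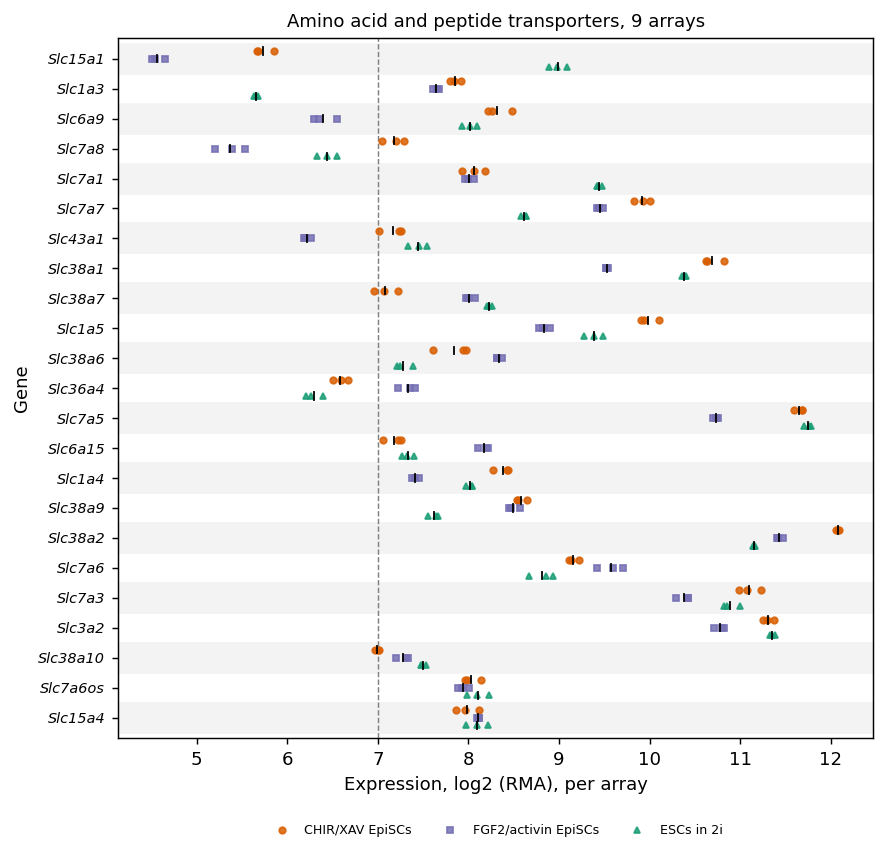
Log2 expression (RMA) of the 23 genes of the amino acid and peptide class (Slc7a6os, which encodes no transporter, among them) on 9 arrays, 1 gene per row, with a point per array, a tick at each group mean and a dashed line at the selection threshold of 7. For Slc7a5, Slc1a5, Slc1a4 and Slc38a1 the 3 FGF2/activin EpiSC arrays lie below the other 6, and Slc15a1 passes 7 in ESCs alone.

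Among transporters of zinc, iron, copper and other metals, Slc39a8, Slc40a1 and Slc39a14 were high in both EpiSC groups and under 7 in ESCs. Of 12 metal and heme class genes at 7 or more in all groups, 7 were higher and 2 lower in CHIR/XAV EpiSCs than ESCs. In FGF2/activin EpiSCs 8 were higher and 3 lower than in ESCs. The first split was 5 and 2 after median centring, and the other was 6 and 3 after quantile normalization. Slc39a8 encodes ZIP8, which brings zinc, manganese and iron into cells. It read 9.95, 9.98 and 10.06 in CHIR/XAV EpiSCs, 10.23, 10.22 and 10.27 in FGF2/activin EpiSCs and 5.29, 5.10 and 5.32 in ESCs. All 6 EpiSC arrays lay far above the 3 ESC arrays, 27.1-fold in CHIR/XAV EpiSCs and 32.0-fold in FGF2/activin EpiSCs, and a dim ESC value may be background, which would understate these folds. Slc39a14, for ZIP14, the closest relative of ZIP8, had 7.90, 8.15 and 8.02 in CHIR/XAV EpiSCs, 8.52, 8.56 and 8.48 in FGF2/activin EpiSCs and 6.52, 6.49 and 6.40 in ESCs. Slc40a1, for ferroportin, the known exporter of iron, had 7.28, 7.58 and 7.53 in CHIR/XAV EpiSCs, 7.71, 7.79 and 7.62 in FGF2/activin EpiSCs and 5.34, 5.24 and 5.25 in ESCs. For both genes the EpiSC arrays all lay above the ESC arrays, and neither reached 7 in ESCs.

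Other metal transporter genes split the EpiSC groups. Slc39a4, for ZIP4, a zinc importer, read 8.44, 8.41 and 8.41 in CHIR/XAV EpiSCs, 6.11, 6.13 and 6.05 in FGF2/activin EpiSCs and 8.11, 7.98 and 7.98 in ESCs, so the FGF2/activin EpiSC arrays were 5.01-fold below CHIR/XAV EpiSCs. Slc11a2, for DMT1, the proton-coupled importer of iron, read 6.71, 6.60 and 6.80 in CHIR/XAV EpiSCs, 7.96, 7.97 and 7.89 in FGF2/activin EpiSCs and 8.27, 8.30 and 8.23 in ESCs, lowest in CHIR/XAV EpiSCs. Slc48a1, whose product carries heme out of endosomes and lysosomes, read 8.6, 8.66 and 8.52 in CHIR/XAV EpiSCs, 7.23, 7.24 and 7.11 in FGF2/activin EpiSCs and 7.93, 7.96 and 7.78 in ESCs. It was higher than in ESCs in CHIR/XAV EpiSCs by 0.70 and lower in FGF2/activin EpiSCs by the same amount (log2 change -0.70), and the EpiSC groups differed by 1.40 ± 0.07 (adjusted p = 2.49e-09). Slc31a2, related to the copper importer gene, averaged 9.42 ± 0.13 in CHIR/XAV EpiSCs, 10.18 ± 0.082 in FGF2/activin EpiSCs and 9.22 ± 0.034 in ESCs. It was highest in FGF2/activin EpiSCs, 1.7-fold above CHIR/XAV EpiSCs (adjusted p = 2.16e-06). Slc39a1, for the zinc importer ZIP1, averaged 7.69 ± 0.11 in CHIR/XAV EpiSCs, 8.43 ± 0.14 in FGF2/activin EpiSCs and 7.70 ± 0.20 in ESCs, and the difference between CHIR/XAV and FGF2/activin EpiSCs was -0.74 (adjusted p = 4.51e-05), with -0.63 from a second probe set.

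A total of 9 of the genes lie on chromosome 15, where neighbouring genes differed in level between the groups in stretches. In gene order up to Amigo2, 252 other genes with a highest mean of 7 or more had median log2 changes of 0.47 in CHIR/XAV EpiSCs against ESCs, 0.20 in FGF2/activin EpiSCs against ESCs and 0.26 between CHIR/XAV and FGF2/activin EpiSCs. Slc1a3, Slc25a17, Slc25a32, Slc38a1, Slc38a2, Slc39a4 and Slc45a4 lie there. From Amigo2 to Atf1, 29 other genes had medians of 1.08, 0.13 and 0.98, and Slc48a1 among them had 0.70, -0.70 and 1.40. After Atf1, 33 other genes had medians of -0.77, 0.02 and -0.85, and Slc11a2 among them had -1.56, -0.32 and -1.23. The bounds of these stretches were chosen from the log2 changes of these same arrays, so their medians are a description. The part of chromosome 15 in the levels of these genes was not tested.

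Slc30a6 and Slc30a5 encode zinc transporters of the secretory pathway. Slc30a6, for a subunit that loads zinc into the Golgi, averaged 8.45 ± 0.095 in CHIR/XAV EpiSCs, 8.31 ± 0.13 in FGF2/activin EpiSCs and 7.46 ± 0.088 in ESCs, and was higher than in ESCs by 0.99 and 0.86 in CHIR/XAV and FGF2/activin EpiSCs (adjusted p = 1.54e-07 and 6.16e-07). Slc30a5, for its partner subunit, was higher by 0.26 and 0.26 (adjusted p = 0.00817 and 0.00622). The first of these calls was lost after median centring (adjusted p = 0.0738) and the other after quantile normalization (adjusted p = 0.169). Slc31a1, for CTR1, the high-affinity copper importer, averaged 9.67 ± 0.071 in CHIR/XAV EpiSCs, 9.72 ± 0.07 in FGF2/activin EpiSCs and 10.09 ± 0.037 in ESCs and was lower than in ESCs in both EpiSC groups (log2 changes -0.41 and -0.37, adjusted p = 0.000146 and 0.000346). Slc41a1, for a magnesium transporter, reached 7 in ESCs alone, with the FGF2/activin EpiSC mean just under it, at 6.90 ± 0.15 in CHIR/XAV EpiSCs, 7.0 ± 0.14 in FGF2/activin EpiSCs and 8.33 ± 0.031 in ESCs. Slc30a2 and Slc39a11, for zinc transporters, also reached 7 in ESCs alone, with ESC means of 7.37 and 7.26.

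**Figure D2:**
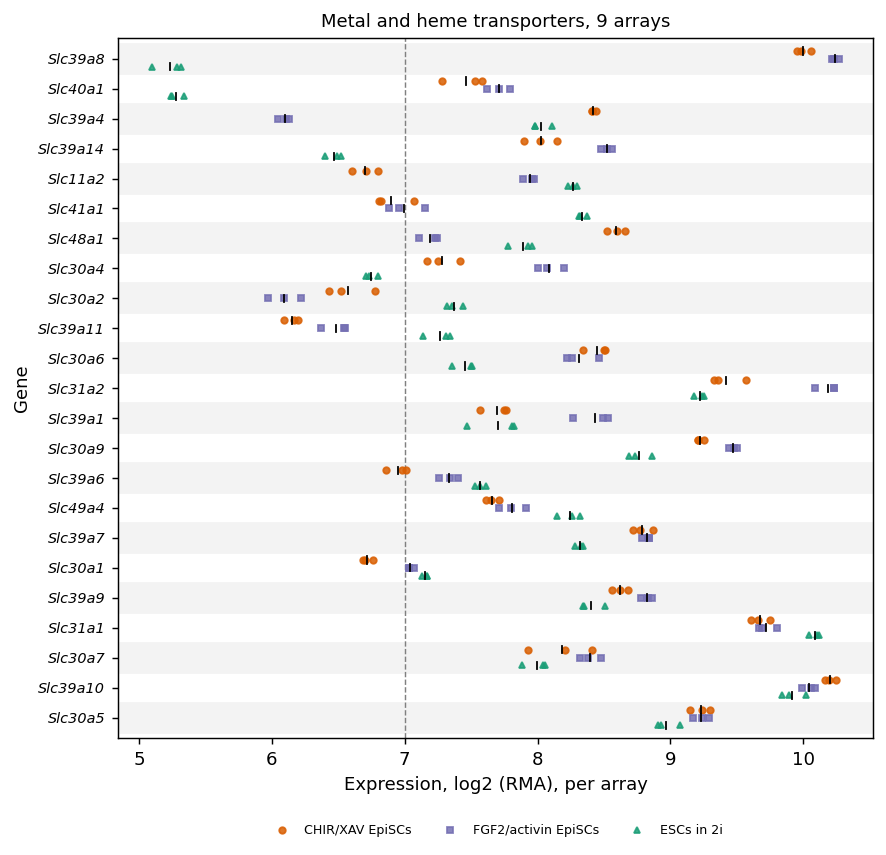
Log2 expression (RMA) of the 23 genes of the metal and heme class on 9 arrays, 1 gene per row, with a point per array, a tick at each group mean and a dashed line at 7. The 6 EpiSC arrays lie right of the 3 ESC arrays for Slc39a8, Slc40a1 and Slc39a14, and the FGF2/activin EpiSC arrays are the low ones for Slc39a4.

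Carboxylate and sugar transporters are the route by which glycolytic cells take up glucose and release lactate. Slc16a3 encodes MCT4, known as a lactate exporter of glycolytic cells. It read 9.93, 9.76 and 9.76 in CHIR/XAV EpiSCs, 9.89, 9.79 and 9.82 in FGF2/activin EpiSCs and 6.66, 6.57 and 6.57 in ESCs, 9.3-fold above ESCs in CHIR/XAV EpiSCs and 9.43-fold in FGF2/activin EpiSCs, and the EpiSC groups overlapped. Slc16a1, for MCT1, which moves lactate and pyruvate in either direction, was at 9.84, 9.95 and 9.92 in CHIR/XAV EpiSCs, 9.50, 9.58 and 9.61 in FGF2/activin EpiSCs and 9.91, 9.85 and 9.92 in ESCs. FGF2/activin EpiSCs were lowest, with CHIR/XAV EpiSCs higher by 0.34 (adjusted p = 0.000835), and CHIR/XAV EpiSCs and ESCs differed by 0.01 (adjusted p = 0.95). Slc16a6, for MCT7, averaged 6.36 ± 0.24 in CHIR/XAV EpiSCs, 7.0 ± 0.12 in FGF2/activin EpiSCs and 8.27 ± 0.022 in ESCs.

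Slc2a3 encodes GLUT3, a high-affinity glucose importer. It read 11.06, 11.14 and 11.14 in CHIR/XAV EpiSCs, 12.07, 12.09 and 11.96 in FGF2/activin EpiSCs and 11.93, 11.94 and 11.84 in ESCs. The CHIR/XAV EpiSC arrays lay below all others, 1.9-fold below FGF2/activin EpiSCs (adjusted p = 6.96e-08) and 1.72-fold below ESCs (adjusted p = 1.97e-07). Slc50a1, the mouse member of the SWEET sugar transporter family, read 7.30, 7.56 and 7.69 in CHIR/XAV EpiSCs, 5.17, 4.84 and 5.17 in FGF2/activin EpiSCs and 8.25, 8.38 and 8.34 in ESCs, so FGF2/activin EpiSCs were 5.48-fold below CHIR/XAV EpiSCs. Slc37a1, for a glucose-6-phosphate exchanger of the endoplasmic reticulum, reached 7 in ESCs alone, at 6.11 ± 0.088 in CHIR/XAV EpiSCs, 6.04 ± 0.05 in FGF2/activin EpiSCs and 7.47 ± 0.019 in ESCs. Slc45a4 and Slc37a3 completed the sugar class as it was drawn here. Slc45a4 was lower in FGF2/activin EpiSCs than ESCs (log2 change -0.58, adjusted p = 1.05e-05), and Slc37a3 was higher there by 0.46 (adjusted p = 0.000313).

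Promoter windows were matched by symbol in RefSeq sequences of GRCm38.p6, which held 97 of the 128 genes. Each window runs from 250 bases before to 50 bases after the start of the gene. Those of 3 genes with large or contrasting levels in the carboxylate and metal groups and of 1 amino acid transporter gene are shown, because the motifs searched are those of factors known for such genes. Capitals mark matches of ACGTG, the core of the hypoxia response element (or of the E-box CACGTG that contains it), and in Slc1a4 of TGATGNAA, the core of the element bound by ATF4, found there on the opposite strand of the window. Slc39a8 lies at chr3:135825407-135825706 (plus strand, 1 of 2 windows of the gene), Slc16a3 at chr11:120948817-120949116 (plus strand), Slc16a1 at chr3:104638414-104638713 (plus strand) and Slc1a4 at chr11:20332664-20332963 (minus strand). Of the 2 Slc39a8 windows, the one with the most motif matches was taken.
Slc39a8: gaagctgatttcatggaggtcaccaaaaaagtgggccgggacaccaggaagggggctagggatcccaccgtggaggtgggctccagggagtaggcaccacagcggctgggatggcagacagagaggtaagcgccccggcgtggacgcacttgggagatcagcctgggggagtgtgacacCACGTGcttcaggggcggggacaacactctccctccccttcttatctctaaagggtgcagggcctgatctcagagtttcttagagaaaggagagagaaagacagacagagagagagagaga
Slc16a3: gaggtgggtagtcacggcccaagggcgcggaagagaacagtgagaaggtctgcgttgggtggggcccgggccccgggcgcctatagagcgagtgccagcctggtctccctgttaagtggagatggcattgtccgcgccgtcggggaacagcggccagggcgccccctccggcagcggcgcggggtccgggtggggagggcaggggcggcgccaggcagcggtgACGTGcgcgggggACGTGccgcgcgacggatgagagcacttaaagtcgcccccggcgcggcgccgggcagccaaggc
Slc16a1: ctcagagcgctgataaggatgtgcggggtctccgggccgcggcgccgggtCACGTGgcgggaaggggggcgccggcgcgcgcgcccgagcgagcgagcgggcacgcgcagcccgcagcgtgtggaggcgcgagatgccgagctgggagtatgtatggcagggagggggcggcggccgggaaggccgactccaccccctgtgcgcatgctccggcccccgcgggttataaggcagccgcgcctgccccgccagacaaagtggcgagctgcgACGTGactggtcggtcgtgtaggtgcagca
Slc1a4: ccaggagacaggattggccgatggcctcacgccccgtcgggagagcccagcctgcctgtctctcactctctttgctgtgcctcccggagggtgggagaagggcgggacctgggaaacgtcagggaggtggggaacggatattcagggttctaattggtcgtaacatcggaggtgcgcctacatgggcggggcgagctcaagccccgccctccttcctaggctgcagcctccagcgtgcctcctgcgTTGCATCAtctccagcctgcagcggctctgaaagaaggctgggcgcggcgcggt

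Each motif was searched on both strands. ACGTG was found in the windows of 37 of the 97 solute carrier genes (38.1%), beside 21.8% of 27025 genes. CACGTG, which holds ACGTG and is also bound by factors such as MYC and TFEB, was found in 18 (18.6%), beside 8.09%. TGATGNAA was found in 4 (4.12%), beside 4.51%, and TGACNNNGC, the core of the antioxidant response element, in 22 (22.7%), beside 14%. CTTTGATC, bound by TCF and LEF factors, was found in 4 (4.12%), beside 1.09%, and TTTGCAT, part of the octamer bound by OCT4, in 2 (2.06%), beside 5.24%. TGCNCNC, which includes the metal response element, was found in 69 (71.1%), beside 53.6%. A gene was counted where any of its windows held the motif, and the number of windows per gene was not matched. The 27025 genes were not limited to expressed ones. The motifs were picked after the levels were seen, base composition was not matched, and a match is not a bound site.

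Inorganic ion and pH transporters held the widest difference between the EpiSC groups. Slc4a10 encodes a sodium-driven bicarbonate transporter best known from neurons. It read 9.70, 9.72 and 9.73 in CHIR/XAV EpiSCs, 4.41, 4.53 and 4.54 in FGF2/activin EpiSCs and 4.66, 4.59 and 4.86 in ESCs. The 3 CHIR/XAV EpiSC arrays alone were high, 37.2-fold above FGF2/activin EpiSCs and 32.3-fold above ESCs. Slc5a5 encodes the sodium iodide symporter of the thyroid and read 7.69, 7.70 and 7.67 in CHIR/XAV EpiSCs, 8.48, 8.47 and 8.30 in FGF2/activin EpiSCs and 5.34, 5.19 and 5.12 in ESCs. Slc4a11, for a proton and ammonia transporter of the bicarbonate transporter family, read 8.15, 7.91 and 7.93 in CHIR/XAV EpiSCs, 9.74, 9.72 and 9.67 in FGF2/activin EpiSCs and 6.79, 6.74 and 6.78 in ESCs. For both genes the order was FGF2/activin EpiSCs, then CHIR/XAV EpiSCs, then ESCs, with no overlap.

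Of 9 genes of this class at 7 or more in all groups, 5 were higher and 1 lower in CHIR/XAV EpiSCs than ESCs, and 4 were higher and 2 lower in FGF2/activin EpiSCs. Slc9a3r1 and Slc4a1ap, which encode no transporters, are counted among the 9, with Slc9a3r1 among the 5. Slc17a5, for a lysosomal sialic acid exporter, is counted in this class as well, among the 5 and among the 4. Slc26a2, for the sulfate transporter that supplies proteoglycan sulfation, read 9.58, 9.68 and 9.43 in CHIR/XAV EpiSCs, 9.83, 10.03 and 9.94 in FGF2/activin EpiSCs and 8.34, 8.18 and 8.27 in ESCs, and was 2.46-fold and 3.18-fold higher in CHIR/XAV and FGF2/activin EpiSCs than in ESCs (adjusted p = 7.53e-09 and 3.45e-10). Slc20a1, for the phosphate importer PiT1, averaged 10.92 ± 0.051 in CHIR/XAV EpiSCs, 10.95 ± 0.054 in FGF2/activin EpiSCs and 10.20 ± 0.057 in ESCs, higher than in ESCs by 0.73 and 0.75 (adjusted p = 3.84e-07 and 2.15e-07). Slc12a2, for NKCC1, which brings sodium, potassium and chloride into cells, averaged 9.41 ± 0.17 in CHIR/XAV EpiSCs, 9.16 ± 0.088 in FGF2/activin EpiSCs and 10.24 ± 0.024 in ESCs and was lower in both EpiSC groups (log2 changes -0.83 and -1.08, adjusted p = 1.52e-06 and 7.37e-08). Potassium and chloride export genes did not reach 7 in every group: Slc12a7 (KCC4) averaged 6.78 ± 0.15 in CHIR/XAV EpiSCs, 7.56 ± 0.067 in FGF2/activin EpiSCs and 8.06 ± 0.089 in ESCs, and Slc12a4 (KCC1) averaged 6.82 ± 0.06 in CHIR/XAV EpiSCs, 7.35 ± 0.066 in FGF2/activin EpiSCs and 6.54 ± 0.036 in ESCs.

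Slc9a3r1, Slc4a1ap and Slc7a6os carry the prefix but do not encode transporters. Slc9a3r1 encodes NHERF1, a scaffold protein that anchors membrane proteins, and read 9.10, 9.26 and 9.45 in CHIR/XAV EpiSCs, 8.13, 8.12 and 8.22 in FGF2/activin EpiSCs and 7.90, 8.09 and 8.19 in ESCs. It was higher in CHIR/XAV EpiSCs than in FGF2/activin EpiSCs and ESCs, by 1.12 and 1.21 (adjusted p = 3.73e-07 and 8.44e-08). Slc4a1ap and Slc7a6os passed the test in none of the 3 comparisons of the values as deposited, with adjusted p-values between 0.0835 and 0.489 for Slc4a1ap and between 0.105 and 0.514 for Slc7a6os.

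Lipid transporters and the choline transporter family split the EpiSC groups as well. Slc27a2 encodes FATP2, which takes up long-chain fatty acids and couples very long ones to coenzyme A. It read 10.73, 10.98 and 10.91 in CHIR/XAV EpiSCs, 7.92, 7.88 and 7.84 in FGF2/activin EpiSCs and 8.25, 8.0 and 8.26 in ESCs. The CHIR/XAV EpiSC arrays were 7.96-fold above FGF2/activin EpiSCs (log2 difference 2.99 ± 0.09, adjusted p = 6.15e-12) and 6.49-fold above ESCs (adjusted p = 4.96e-12). Slc44a2, of the choline transporter-like family, read 8.64, 8.80 and 8.71 in CHIR/XAV EpiSCs, 7.95, 8.01 and 7.88 in FGF2/activin EpiSCs and 7.13, 7.23 and 7.06 in ESCs, in the order CHIR/XAV EpiSCs, FGF2/activin EpiSCs, ESCs without overlap. Slc44a1, for the choline transporter CTL1, had the reverse order, with 11.16, 11.40 and 11.12 in CHIR/XAV EpiSCs, 11.50, 11.69 and 11.65 in FGF2/activin EpiSCs and 12.29, 11.84 and 12.10 in ESCs, and was lower in CHIR/XAV and FGF2/activin EpiSCs than in ESCs (log2 changes -0.85 and -0.46, adjusted p = 1.34e-05 and 0.00227). Slc10a7 was lower than in ESCs in both (log2 changes -0.61 and -0.40, adjusted p = 3.13e-06 and 0.000147).

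Osmolyte carriers differed in both directions. Slc5a3 encodes SMIT1, which accumulates myo-inositol, and read 7.21, 7.39 and 7.55 in CHIR/XAV EpiSCs, 8.62, 8.56 and 8.59 in FGF2/activin EpiSCs and 6.07, 6.28 and 6.33 in ESCs, highest in FGF2/activin EpiSCs. Slc6a6 encodes TauT, the taurine transporter, and read 9.29, 9.63 and 9.51 in CHIR/XAV EpiSCs, 10.39, 10.47 and 10.37 in FGF2/activin EpiSCs and 9.79, 9.75 and 9.69 in ESCs. Its FGF2/activin EpiSC arrays lay above the others, with a difference of -0.94 ± 0.08 for CHIR/XAV minus FGF2/activin EpiSCs (adjusted p = 6.01e-07). Slc6a8, for the creatine transporter, averaged 7.19 ± 0.069 in CHIR/XAV EpiSCs, 7.59 ± 0.048 in FGF2/activin EpiSCs and 8.17 ± 0.074 in ESCs. Slc18b1, for a vesicular polyamine transporter, averaged 8.31 ± 0.078 in CHIR/XAV EpiSCs, 8.36 ± 0.071 in FGF2/activin EpiSCs and 9.26 ± 0.16 in ESCs. Both were lower than in ESCs, with log2 changes in CHIR/XAV and FGF2/activin EpiSCs of -0.98 and -0.58 for Slc6a8 and of -0.95 and -0.90 for Slc18b1 (adjusted p = 2.43e-08 and 5.31e-06 for Slc6a8, and 3.28e-07 and 4.98e-07 for Slc18b1).

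**Figure D3:**
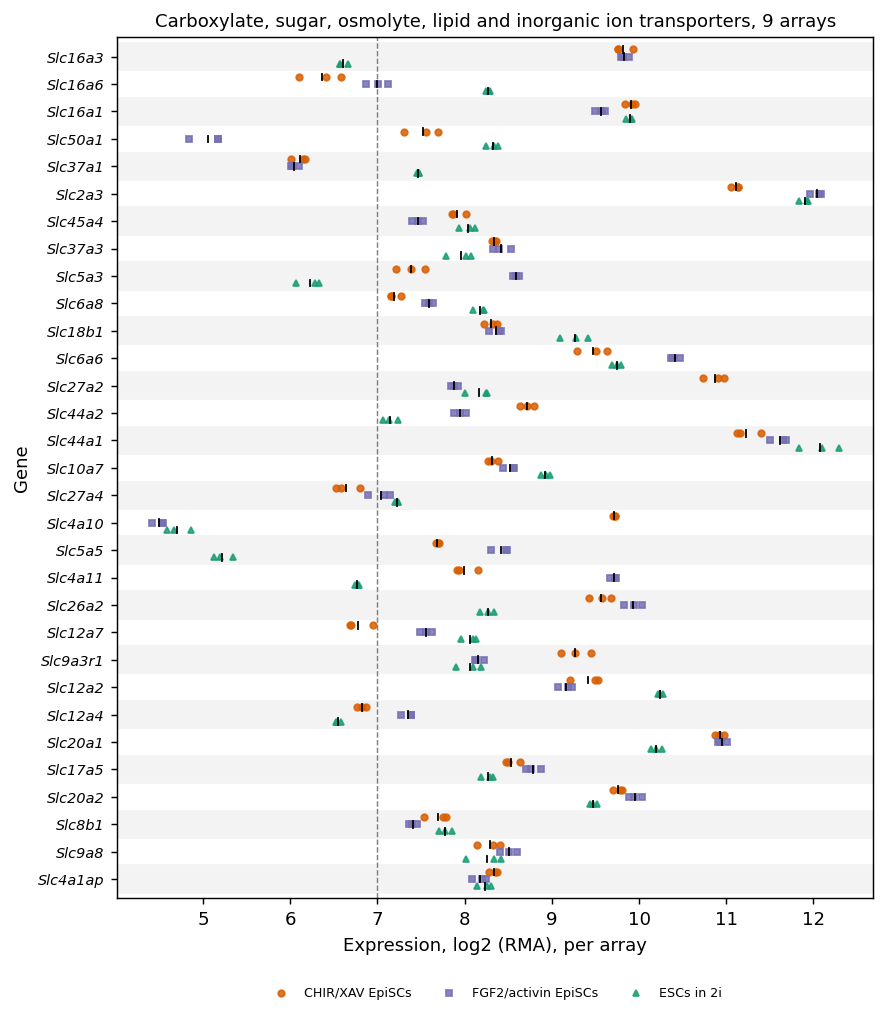
Log2 expression (RMA) of 31 genes of the carboxylate, sugar, osmolyte, lipid and inorganic ion classes (Slc9a3r1 and Slc4a1ap, which encode no transporters, among them) on 9 arrays, 1 gene per row, with a point per array, a tick at each group mean and a dashed line at 7. Slc16a3 separates the 6 EpiSC arrays from the ESC arrays, Slc4a10 and Slc27a2 are high on the CHIR/XAV EpiSC arrays alone, and Slc50a1 is low on the FGF2/activin EpiSC arrays.

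Mitochondrial carriers exchange metabolites, nucleotides and ions across the inner membrane. Of 20 genes of this class at 7 or more in all groups, 5 were higher and 8 lower in CHIR/XAV EpiSCs than ESCs, and 8 were higher and 10 lower in FGF2/activin EpiSCs. These splits were 4 and 10 after median centring in CHIR/XAV EpiSCs and 5 and 10 after quantile normalization in FGF2/activin EpiSCs. Slc25a17, for a peroxisomal carrier, and Slc25a46, for an outer membrane protein, are counted among the 20. Both are among those called higher than in ESCs in each EpiSC group as deposited. Between CHIR/XAV and FGF2/activin EpiSCs 3 were higher and 6 lower (Slc25a46 among the 6), beside 19.3% and 33.6% of all genes at that level. After quantile normalization 6 were higher and 4 lower. The aspartate-glutamate carriers of the malate-aspartate shuttle were both lower in EpiSCs. Slc25a12, for aralar, read 7.72, 7.87 and 7.90 in CHIR/XAV EpiSCs, 8.40, 8.49 and 8.37 in FGF2/activin EpiSCs and 9.29, 9.36 and 9.42 in ESCs, and was 2.88-fold and 1.91-fold lower in CHIR/XAV and FGF2/activin EpiSCs than in ESCs (adjusted p = 3.23e-10 and 5.28e-08). Slc25a13, for citrin, averaged 9.20 ± 0.045 in CHIR/XAV EpiSCs, 8.90 ± 0.061 in FGF2/activin EpiSCs and 9.94 ± 0.039 in ESCs, lower than in ESCs (log2 changes -0.75 and -1.05, adjusted p = 2.32e-07 and 4.54e-09).

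Slc25a1, Slc25a4, Slc25a28, Slc25a39 and Slc25a36 were also lower in both EpiSC groups than in ESCs. Slc25a1, for the citrate carrier that feeds lipid synthesis, averaged 10.24 ± 0.067 in CHIR/XAV EpiSCs, 10.13 ± 0.016 in FGF2/activin EpiSCs and 11.02 ± 0.044 in ESCs, with log2 changes of -0.78 and -0.88 in CHIR/XAV and FGF2/activin EpiSCs (adjusted p = 1.39e-07 and 2.8e-08). Slc25a4, for the ADP/ATP carrier ANT1, averaged 10.84 ± 0.047 in CHIR/XAV EpiSCs, 11.13 ± 0.045 in FGF2/activin EpiSCs and 11.76 ± 0.092 in ESCs and changed by -0.91 and -0.62 (adjusted p = 5.1e-08 and 2.55e-06). Its close paralogue Slc25a5, for ANT2, averaged 12.41 ± 0.024 in CHIR/XAV EpiSCs, 12.33 ± 0.031 in FGF2/activin EpiSCs and 12.56 ± 0.053 in ESCs. How far their probes share transcripts was not tested. Slc25a28, for mitoferrin 2, which imports iron, changed by -0.80 and -0.86 (adjusted p = 8.08e-07 and 3.04e-07). Slc25a39, known as a glutathione importer, changed by -0.84 and -0.78 (adjusted p = 8.36e-08 and 1.55e-07). Slc25a36, for a pyrimidine nucleotide carrier, averaged 11.41 ± 0.055 in CHIR/XAV EpiSCs, 11.24 ± 0.03 in FGF2/activin EpiSCs and 12.11 ± 0.059 in ESCs and changed by -0.70 and -0.87 (adjusted p = 4.6e-07 and 3.76e-08).

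Slc25a24, Slc25a46 and Slc25a17 lay higher in EpiSCs. Slc25a24, for a calcium-regulated ATP-Mg/phosphate carrier, read 8.10, 8.04 and 7.96 in CHIR/XAV EpiSCs, 9.02, 9.13 and 9.0 in FGF2/activin EpiSCs and 5.77, 5.83 and 5.47 in ESCs, in the order FGF2/activin EpiSCs, CHIR/XAV EpiSCs, ESCs without overlap. Slc25a23, for a relative of it, averaged 7.39 ± 0.052 in CHIR/XAV EpiSCs, 7.24 ± 0.097 in FGF2/activin EpiSCs and 6.32 ± 0.12 in ESCs. Slc25a46, for an outer membrane protein of mitochondrial dynamics, was higher by 0.75 and 0.99 in CHIR/XAV and FGF2/activin EpiSCs than in ESCs (adjusted p = 4.64e-07 and 1.79e-08). Slc25a17, for a peroxisomal carrier of the same family, was higher by 0.77 and 0.72 (adjusted p = 2.33e-07 and 4.31e-07). Slc25a40 averaged 8.14 ± 0.18 in CHIR/XAV EpiSCs, 8.84 ± 0.13 in FGF2/activin EpiSCs and 7.87 ± 0.20 in ESCs, highest in FGF2/activin EpiSCs, where it was 1.63-fold above CHIR/XAV EpiSCs (adjusted p = 0.000138). Slc25a43, Slc25a20 and Slc25a26 reached 7 in ESCs alone. Slc25a43, an orphan carrier, averaged 5.79 ± 0.20 in CHIR/XAV EpiSCs, 5.05 ± 0.11 in FGF2/activin EpiSCs and 7.53 ± 0.18 in ESCs, and Slc25a20, for the carnitine-acylcarnitine carrier of fatty acid oxidation, averaged 6.47 ± 0.04 in CHIR/XAV EpiSCs, 6.72 ± 0.13 in FGF2/activin EpiSCs and 7.55 ± 0.12 in ESCs. Slc25a3, for the phosphate carrier, passed the test in none of the comparisons of the values as deposited and averaged 11.18 ± 0.076 in CHIR/XAV EpiSCs, 11.36 ± 0.035 in FGF2/activin EpiSCs and 11.28 ± 0.09 in ESCs.

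**Figure D4:**
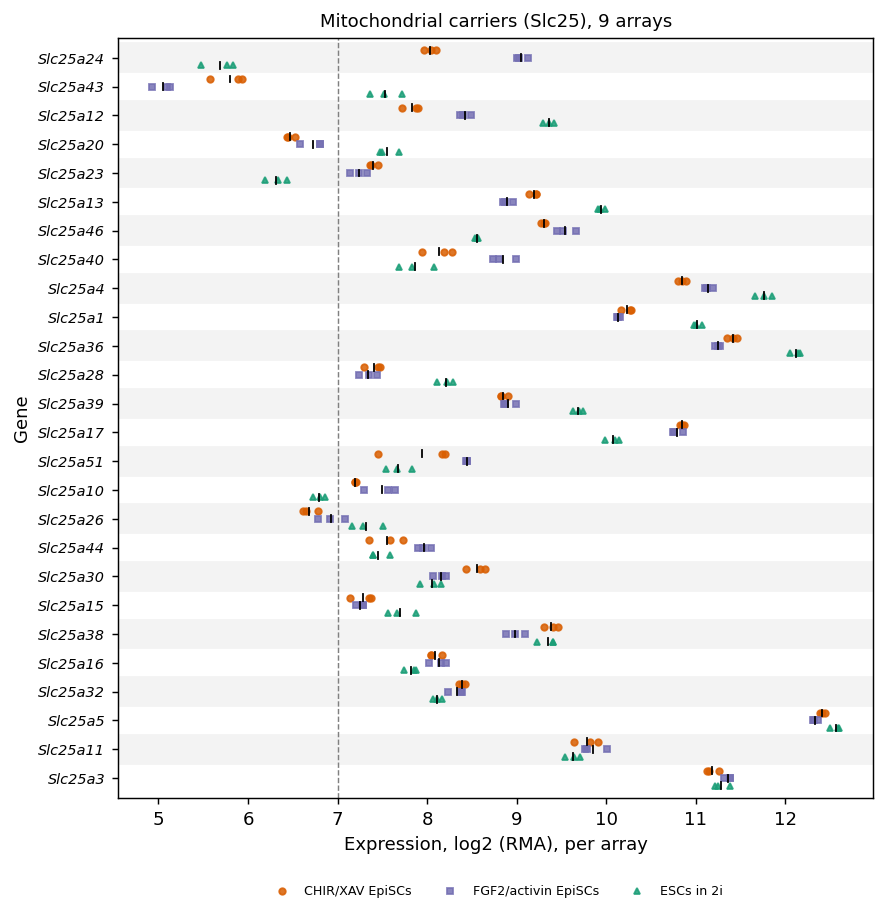
Log2 expression (RMA) of the 26 genes of the mitochondrial carrier family SLC25 on 9 arrays, 1 gene per row, with a point per array, a tick at each group mean and a dashed line at 7. Slc25a17, for a peroxisomal carrier, and Slc25a46, for an outer membrane protein, are among them. Slc25a12, Slc25a13, Slc25a1 and Slc25a4 are highest on the ESC arrays, and Slc25a24 is lowest there.

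Nucleoside and nucleotide sugar transporters supply nucleosides for salvage and activated sugars to the Golgi. Of 14 genes at 7 or more in all groups, 5 were higher and 3 lower in CHIR/XAV EpiSCs than in ESCs, but 3 were higher and 5 lower after median centring. In FGF2/activin EpiSCs 7 were higher and 2 lower than in ESCs, but 2 were higher and 4 lower after quantile normalization. Slc35f5, of a family with few known substrates, read 8.86, 8.96 and 8.91 in CHIR/XAV EpiSCs, 9.40, 9.36 and 9.42 in FGF2/activin EpiSCs and 7.17, 7.33 and 7.27 in ESCs, and was 3.14-fold and 4.4-fold higher in CHIR/XAV and FGF2/activin EpiSCs than in ESCs (adjusted p = 5.8e-11 and 2.61e-12). Slc29a1, for ENT1, the main equilibrative nucleoside transporter, read 9.18, 9.18 and 9.24 in CHIR/XAV EpiSCs, 8.40, 8.44 and 8.37 in FGF2/activin EpiSCs and 9.49, 9.51 and 9.55 in ESCs. FGF2/activin EpiSCs were lowest, 1.74-fold below CHIR/XAV EpiSCs (adjusted p = 1.26e-07) and 2.17-fold below ESCs (adjusted p = 1.25e-09). Slc43a3, for a purine nucleobase transporter, read 7.15, 7.25 and 7.14 in CHIR/XAV EpiSCs, 5.03, 4.89 and 5.22 in FGF2/activin EpiSCs and 6.91, 7.07 and 6.81 in ESCs, also with the FGF2/activin EpiSC arrays as the low ones.

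Slc35f2 was highest in CHIR/XAV EpiSCs, at 9.55 ± 0.098 in CHIR/XAV EpiSCs, 8.74 ± 0.017 in FGF2/activin EpiSCs and 8.92 ± 0.017 in ESCs, and differed from FGF2/activin EpiSCs by 0.81 (adjusted p = 2.75e-07). Slc35a5 had the opposite order of the EpiSC groups, at 7.16 ± 0.09 in CHIR/XAV EpiSCs, 7.88 ± 0.074 in FGF2/activin EpiSCs and 7.51 ± 0.019 in ESCs, with a difference of -0.72 (adjusted p = 1.32e-06). Slc35a1, for the Golgi CMP-sialic acid transporter, averaged 7.09 ± 0.18 in CHIR/XAV EpiSCs, 7.75 ± 0.14 in FGF2/activin EpiSCs and 7.25 ± 0.15 in ESCs, with a difference of -0.66 (adjusted p = 0.000157). Slc17a9, for the vesicular nucleotide transporter, and Slc28a1, for the concentrative pyrimidine nucleoside transporter CNT1, reached 7 in ESCs alone. Slc17a9 read 4.64, 4.60 and 4.73 in CHIR/XAV EpiSCs, 4.40, 4.54 and 4.47 in FGF2/activin EpiSCs and 7.09, 6.91 and 7.08 in ESCs, and Slc28a1 averaged 5.81 ± 0.076 in CHIR/XAV EpiSCs, 5.85 ± 0.10 in FGF2/activin EpiSCs and 7.30 ± 0.035 in ESCs. Slc33a1, for the acetyl-CoA transporter of the endoplasmic reticulum, averaged 7.58 ± 0.027 in CHIR/XAV EpiSCs, 7.98 ± 0.056 in FGF2/activin EpiSCs and 6.77 ± 0.13 in ESCs. Slc35a4, Slc35b4, Slc35e1 and Slc35e2 passed the test in none of the 3 comparisons of the values as deposited, with log2 differences between -0.14 and 0.11.

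Vitamin carriers were few. Slc19a2, for the thiamine transporter THTR1, averaged 8.51 ± 0.059 in CHIR/XAV EpiSCs, 9.04 ± 0.032 in FGF2/activin EpiSCs and 8.40 ± 0.064 in ESCs, and was lower in CHIR/XAV than in FGF2/activin EpiSCs (log2 difference -0.53, adjusted p = 1.67e-05). Slc23a2, for the ascorbate transporter SVCT2, averaged 9.05 ± 0.14 in CHIR/XAV EpiSCs, 9.24 ± 0.052 in FGF2/activin EpiSCs and 9.03 ± 0.077 in ESCs, and its relative Slc23a1, for SVCT1, reached 7 in ESCs alone, at 6.11 ± 0.16 in CHIR/XAV EpiSCs, 5.40 ± 0.079 in FGF2/activin EpiSCs and 7.09 ± 0.19 in ESCs. Slc19a1, for the reduced folate carrier, averaged 7.0 ± 0.057 in CHIR/XAV EpiSCs, 6.88 ± 0.14 in FGF2/activin EpiSCs and 7.01 ± 0.12 in ESCs, while a dimmer probe set of it averaged 6.32 in CHIR/XAV EpiSCs, 5.99 in FGF2/activin EpiSCs and 6.82 in ESCs. Among organic ion carriers, Slc16a9, for a carnitine efflux transporter, averaged 5.34 ± 0.15 in CHIR/XAV EpiSCs, 5.11 ± 0.084 in FGF2/activin EpiSCs and 7.68 ± 0.049 in ESCs, but a dimmer probe set of the gene read 4.55, 4.54 and 4.53 in CHIR/XAV EpiSCs, FGF2/activin EpiSCs and ESCs. Slc22a23, an orphan of the organic cation and anion family, averaged 7.17 ± 0.12 in CHIR/XAV EpiSCs, 8.14 ± 0.023 in FGF2/activin EpiSCs and 6.20 ± 0.042 in ESCs.

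The genes not yet described had smaller gaps, with group means of a gene at most 1.34 apart. Among those under 7 in some group, Slc30a4, for a zinc exporter, averaged 7.28 ± 0.12 in CHIR/XAV EpiSCs, 8.09 ± 0.098 in FGF2/activin EpiSCs and 6.75 ± 0.05 in ESCs. Slc30a1, for the plasma membrane zinc exporter ZnT1, averaged 6.72 ± 0.038 in CHIR/XAV EpiSCs, 7.04 ± 0.025 in FGF2/activin EpiSCs and 7.16 ± 0.024 in ESCs, and Slc39a6, for the zinc importer ZIP6, averaged 6.95 ± 0.077 in CHIR/XAV EpiSCs, 7.33 ± 0.071 in FGF2/activin EpiSCs and 7.57 ± 0.039 in ESCs. Slc38a10 averaged 6.99 ± 0.019 in CHIR/XAV EpiSCs, 7.28 ± 0.072 in FGF2/activin EpiSCs and 7.5 ± 0.028 in ESCs. All 3 of the last-named had their highest mean in ESCs. Slc25a10, for the mitochondrial dicarboxylate carrier, averaged 7.19 ± 0.009 in CHIR/XAV EpiSCs, 7.5 ± 0.18 in FGF2/activin EpiSCs and 6.79 ± 0.07 in ESCs, and Slc27a4, for the fatty acid transporter FATP4, averaged 6.63 ± 0.15 in CHIR/XAV EpiSCs, 7.04 ± 0.13 in FGF2/activin EpiSCs and 7.23 ± 0.025 in ESCs.

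Among those at 7 or more in all groups, 3 metal carrier genes were higher than in ESCs in both EpiSC groups. Slc30a9 was higher by 0.46 in CHIR/XAV EpiSCs and 0.71 in FGF2/activin EpiSCs (adjusted p = 4.24e-05 and 4.61e-07). Slc39a7, for ZIP7, which releases zinc from the endoplasmic reticulum, was higher by 0.47 and 0.51 (adjusted p = 2.76e-05 and 1.14e-05). Slc39a9 averaged 8.62 ± 0.056 in CHIR/XAV EpiSCs, 8.82 ± 0.039 in FGF2/activin EpiSCs and 8.40 ± 0.096 in ESCs, and its call in CHIR/XAV EpiSCs against ESCs (adjusted p = 0.0179) was lost after median centring (adjusted p = 0.163) and without ESC array 1, ESC array 3 or CHIR/XAV array 3 (adjusted p between 0.0622 and 0.0661). Slc49a4 was lower in both (log2 changes -0.58 and -0.43, adjusted p = 1.17e-05 and 0.000169). Slc39a10, for the zinc importer ZIP10, averaged 10.20 ± 0.046 in CHIR/XAV EpiSCs, 10.05 ± 0.051 in FGF2/activin EpiSCs and 9.92 ± 0.093 in ESCs, and Slc30a7, for a Golgi zinc transporter, averaged 8.18 ± 0.24 in CHIR/XAV EpiSCs, 8.39 ± 0.081 in FGF2/activin EpiSCs and 7.99 ± 0.097 in ESCs.

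Mitochondrial carriers with small changes included 3 that set the EpiSC groups apart. Slc25a38, for a glycine carrier needed for heme synthesis, was higher in CHIR/XAV than in FGF2/activin EpiSCs by 0.41 (adjusted p = 0.000814). Slc25a30 was higher by 0.40 (adjusted p = 0.00113), and Slc25a44, for a branched-chain amino acid carrier, was lower (log2 difference -0.41, adjusted p = 0.00304). Slc25a51, for the NAD carrier, averaged 7.94 ± 0.42 in CHIR/XAV EpiSCs, 8.44 ± 0.015 in FGF2/activin EpiSCs and 7.67 ± 0.15 in ESCs, with 1 CHIR/XAV EpiSC array at 7.45 beside 8.20 and 8.17. Slc25a15, for an ornithine carrier, was lower than in ESCs in CHIR/XAV and FGF2/activin EpiSCs (log2 changes -0.41 and -0.45, adjusted p = 0.00141 and 0.000641). Slc25a16, Slc25a32 and Slc25a11 differed from ESCs by 0.16 to 0.31 in either EpiSC group, with Slc25a11 not called in CHIR/XAV EpiSCs (adjusted p = 0.153). In FGF2/activin EpiSCs all 3 lost their call after quantile normalization (adjusted p between 0.129 and 0.654). In CHIR/XAV EpiSCs Slc25a16 lost its call after median centring (adjusted p = 0.0662).

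In the other classes, the level of Slc35f6 exceeded that of ESCs by 0.70 in FGF2/activin EpiSCs (adjusted p = 6.7e-06), and Slc35g1 was lower in CHIR/XAV than in FGF2/activin EpiSCs (log2 difference -0.55, adjusted p = 1.66e-05). Slc29a2, for the nucleoside transporter ENT2, was higher in CHIR/XAV EpiSCs than in ESCs by 0.50 (adjusted p = 4.89e-05). The group means of Slc35a3 lay within 0.27 of each other, and those of Slc35b1 within 0.23. Slc20a2, for the phosphate importer PiT2, was higher than in ESCs by 0.29 and 0.47 (adjusted p = 0.00243 and 2.92e-05). Slc17a5, for the lysosomal sialic acid exporter sialin, was higher in FGF2/activin EpiSCs by 0.51 (adjusted p = 4.22e-05), and Slc8b1, for the mitochondrial sodium-calcium exchanger, was lower there (log2 change -0.38, adjusted p = 0.000931). Slc9a8 and Slc15a4 averaged 8.29 ± 0.14 in CHIR/XAV EpiSCs, 8.51 ± 0.096 in FGF2/activin EpiSCs and 8.26 ± 0.21 in ESCs for Slc9a8 and 7.98 ± 0.13 in CHIR/XAV EpiSCs, 8.11 ± 0.016 in FGF2/activin EpiSCs and 8.09 ± 0.12 in ESCs for Slc15a4.

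Set side by side, the direct comparison of the EpiSC groups, which share strain, had its widest gaps in genes of different classes. The 5 genes with the largest excess in CHIR/XAV EpiSCs were Slc4a10, Slc27a2, Slc50a1, Slc39a4 and Slc43a3, with log2 differences from 5.22 to 2.14. The 5 with the largest excess in FGF2/activin EpiSCs were Slc4a11, Slc11a2, Slc5a3, Slc25a24 and Slc6a15, with differences from -1.72 to -1.0. Among the 84 genes at 7 or more in all groups, 5 were at least 2-fold higher in CHIR/XAV EpiSCs (Slc27a2, Slc48a1, Slc38a1, Slc1a5 and Slc9a3r1) and none at least 2-fold lower, beside 1.16% and 2.27% of all genes at that level. Of the 44 genes under 7 in some group, 7 were at least 2-fold above and 4 at least 2-fold below FGF2/activin EpiSCs. The rule of choice favours wide gaps among these 44. The share among all genes so placed was not computed, so these counts are a description.

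**Figure D5:**
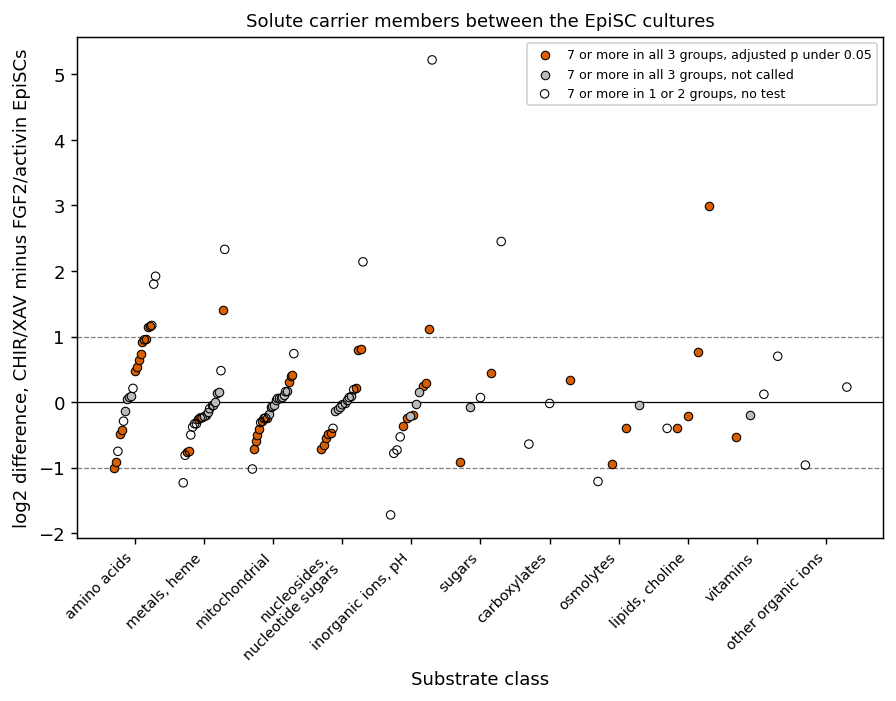
Log2 difference of CHIR/XAV minus FGF2/activin EpiSCs for the 128 solute carrier genes, 1 point per gene, grouped by substrate class on the x axis, with dashed lines at 2-fold. Filled orange points are genes at 7 or more in all 3 groups with a limma adjusted p under 0.05, grey points those not called, and open points genes that reached 7 in 1 or 2 groups, with no test. Slc4a10, at 5.22, is the highest point and Slc4a11, at -1.72, the lowest, both of the inorganic ion class.

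Partners and regulators of the transporters were a list of 30 genes of which 22 were measured, 14 of them at 7 or more in all groups. Of the 22, 8 were higher and 6 lower in CHIR/XAV EpiSCs than ESCs, and 14 were higher and 6 lower in FGF2/activin EpiSCs, beside 33.7% and 28% of genes at 7 or more in all groups (24.7% and 22.1% of all genes) higher and lower in the first comparison, and 41.7% and 25.8% (27.8% and 33.5% of all genes) in the second. Emb and Bsg encode embigin and basigin, which carry monocarboxylate transporters to the membrane. Emb averaged 11.92 ± 0.07 in CHIR/XAV EpiSCs, 11.34 ± 0.03 in FGF2/activin EpiSCs and 10.13 ± 0.10 in ESCs (SD, n = 3 each), and was higher than in ESCs by 1.79 and 1.21 (limma adjusted p = 4.72e-11 and 2.75e-09). Bsg was higher by 0.38 in CHIR/XAV EpiSCs and 0.67 in FGF2/activin EpiSCs (adjusted p = 0.000205 and 6.96e-07). Mpc1, not a solute carrier gene by its symbol, encodes a subunit of the mitochondrial pyruvate carrier. It averaged 7.65 ± 0.08 in CHIR/XAV EpiSCs, 9.21 ± 0.15 in FGF2/activin EpiSCs and 10.51 ± 0.01 in ESCs, so it was lower in both EpiSC groups (log2 changes -2.87 and -1.30, adjusted p = 1.07e-12 and 3.96e-09). Atp1b2, for a subunit of the sodium pump that drives sodium-coupled carriers, was higher by 2.42 in CHIR/XAV EpiSCs and 2.43 in FGF2/activin EpiSCs than in ESCs (adjusted p = 1.44e-12 and 9.46e-13). The brighter Atp1b1, for a related subunit, was lower in both (log2 changes -0.84 and -0.36, adjusted p = 1.95e-07 and 0.000645). Atp1b3, for another, was higher by 0.25 in FGF2/activin EpiSCs (adjusted p = 0.0053) and not called in CHIR/XAV EpiSCs (adjusted p = 0.509). Stk39, for SPAK, a kinase that activates NKCC1, was higher than in ESCs by 1.47 and 1.16 in CHIR/XAV and FGF2/activin EpiSCs (adjusted p = 6.4e-09 and 6.63e-08). The brighter Oxsr1, for the related kinase OSR1, was lower in both (log2 changes -0.35 and -0.29, adjusted p = 0.000259 and 0.00124).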

How the data were processed

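Total RNA of 9 samples was measured on Affymetrix Mouse Gene 1.0 ST arrays (1 colour), a name taken from the probe annotation. The deposited values are log2 expression per probe set, which, per the submitters' processing notes, the authors made with Partek by RMA, of no stated version. Detection calls were not used, so a dim value may be background.

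Groups and replicate numbers came from the sample titles. Of 35399 probe sets, 21789 carried 1 symbol, and the brightest by mean over 9 arrays stood for each of 19938 genes. Gene identifiers were matched to RefSeq names of GRCm38.p6 (19856 matched), and no solute carrier symbol changed. No build is stated for the array annotation, so coordinates are those of the RefSeq promoter windows alone.

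All 9 arrays entered 1 linear model (limma 3.58.1, R 4.3.3, moderated with eBayes) without covariates, and dim genes were kept. P-values were adjusted by Benjamini-Hochberg over the 19938 genes, and calls are those under 0.05. Standard errors are the fit's moderated ones. Members, substrate classes and gene lists were chosen with earlier results of these data known, and give no independent support. Named genes follow a rule: in each class the 5 with the widest range of group means and the 2 brightest, those nearest the threshold, those that reach it in 1 group, and the 5 largest differences each way between the EpiSC groups. The other solute carrier genes named were chosen after their values were seen. On simulated data for CHIR/XAV EpiSCs against ESCs with 19938 genes, the fit recovered 74.6% of 67 genes changed by 0.5, 98.5% of 67 changed by 1 and 100% of 66 changed by 2 on the log2 scale, with 8 false calls among 190. Noise there was normal and independent between arrays, and far fewer genes changed than were called in the data (9320). These rates need not hold for the data. Alternatives changed the probe set rule, the scaling, the variance model, the arrays fitted, the test and the filter on dim genes.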

Additional observations from a re-analysis of the deposited data

Results flagged for a closer look

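A total of 9 of the 84 solute carrier genes at 7 or more in all 3 groups (10.7%) were called against ESCs in opposite directions in the EpiSC groups, beside 263 of the 6269 genes of any kind at that level (4.2%). Both comparisons share the ESC arrays. The value given for each gene, the log2 difference of CHIR/XAV minus FGF2/activin EpiSCs, is the difference of those changes, so its sign follows from the choice of genes and it is a description with no test. Higher in CHIR/XAV EpiSCs and lower in FGF2/activin EpiSCs were 4 amino acid transporter genes: Slc1a4, with a difference of 0.97, Slc1a5, with 1.15, Slc38a1, with 1.16, and Slc7a3, with 0.73. The same held for the fatty acid transporter gene Slc27a2, with a difference of 2.99, the heme transporter gene Slc48a1, with 1.40, and Slc35f2, with 0.81. The reverse held for the taurine transporter gene Slc6a6, with -0.94, and for Slc35a5, with -0.72. All 9 kept the sign of each change against ESCs under median centring and quantile normalization.

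Some changes against ESCs lost their call. For Slc7a3 in CHIR/XAV EpiSCs (0.21, adjusted p = 0.0453) this happened after median centring (adjusted p = 0.25), in a fit of the 2 groups alone (adjusted p = 0.0633), and without ESC array 2 or 3, CHIR/XAV array 1 or 2, or FGF2/activin array 1 or 2 (adjusted p between 0.0548 and 0.198). Slc35f2 in FGF2/activin EpiSCs (-0.18) lost it without any 1 of the ESC or FGF2/activin arrays (adjusted p between 0.0556 and 0.0793). Slc6a6 in CHIR/XAV EpiSCs (-0.26) lost its call without CHIR/XAV array 1 (adjusted p = 0.0784) and without ESC array 1 (adjusted p = 0.0565). Slc35a5 in FGF2/activin EpiSCs (0.37) lost it after quantile normalization (adjusted p = 0.0734).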

How the results depend on the processing

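Gene by gene, the alternatives other than the treat test were compared with the main fit. No call of a solute carrier gene changed direction under them. Of the 384 differences (128 genes in 3 comparisons), 253 were unchanged under all of them. Unchanged means on the same side of the threshold or, where untested, moved by no more than the spread between arrays. A limma treat test against 1.5-fold cut the calls most: 18 of the 84 genes at 7 or more in all groups (9 higher, 9 lower) in CHIR/XAV EpiSCs against ESCs, 23 (11 and 12) in FGF2/activin EpiSCs against ESCs and 13 (9 and 4) in CHIR/XAV against FGF2/activin EpiSCs, and 2241, 2726 and 1175 of all genes. Leaving out 1 array at a time left 53 to 58, 65 to 71 and 44 to 52 of the 84 called, and 8438 to 9268, 10561 to 12416 and 6923 to 8418 of all genes. Of all genes called in CHIR/XAV EpiSCs against ESCs, 52.7% were higher as deposited and 35.0% after median centring. For FGF2/activin EpiSCs against ESCs the share was 45.3% as deposited, 35.0% after median centring and 59.6% without the dimmest 40% of genes. Same-numbered arrays of different groups had deviations that correlated by -0.071 to 0.239, beside -0.227 to 0.178 for differently numbered arrays. The highest value was that of ESC array 3 with FGF2/activin array 3. With so few arrays these values do not settle whether the replicate numbers pair the arrays. With the replicate number as a block, 55, 71 and 51 of the 84 genes were called, and 9325, 12202 and 8246 of all genes. A level threshold of 6.5 or 7.5 in place of 7 gave 148 or 110 solute carrier genes. Signal over background limits the dim levels.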
